A study of Mus musculus with 12 samples.

Results

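BV2 cells cultured with PMA-stimulated mouse neutrophils were compared with BV2 cells cultured alone, gene by gene, over every gene that passed a filter on low counts. BV2 is an immortalised mouse line of microglia, the macrophages that live in brain and retina. PMA (phorbol 12-myristate 13-acetate) switches on protein kinase C and drives neutrophils to shed neutrophil extracellular traps (NETs), strands of chromatin that carry granule proteins. The co-culture, called Neu+NETS in the labels, and the culture alone, called CTR, each had 4 libraries, so 8 of the 12 libraries of the series were compared. The other 4 libraries, called Neu, came from BV2 cells kept with unstimulated primary neutrophils. They are shown for the difference between both co-cultures and for marker levels, and they also entered the shared filter, scaling and estimate of spread. Of 27487 genes listed, 16387 were tested. The question behind the series is what neutrophils, with or without traps, do to microglia. The labels give the tissue as retina and also name the BV2 line, an established culture, and they state neither the duration of contact, nor the ratio of cells, nor how BV2 RNA was parted from neutrophil RNA. No BV2 library with PMA and no neutrophils was analysed here, so the stimulated neutrophils, their traps and any PMA carried over cannot be told apart.

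Macrophages, microglia included, owe their identity to a small circle of transcription factors, among them PU.1 (Spi1), IRF8 and C/EBP factors, held in place by signals through the receptor for colony-stimulating factor 1. These factors switch on phagocytic and pattern-recognition receptors, the lysosome and the phagocyte NADPH oxidase. A separate circuit, the integrated stress response, senses amino acid shortage or misfolded protein, raises the factor ATF4 and through it the genes that make, import and charge amino acids. Protein kinase C, the target of PMA, feeds the ERK kinase cascade, which AP-1 factors and their feedback phosphatases follow.

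Levels are given in FPKM (fragments per transcript length and library size), which allow genes of unequal length to be set side by side, and always in the order of libraries 1 to 4. Fold changes are log2 values of Neu+NETS minus CTR with their standard error (SE), from edgeR's quasi-likelihood test of the counts, and a gene is called where the Benjamini-Hochberg adjusted p is under 0.05. Whether the 4 libraries of a group stem from separate cultures is not stated in the labels, so the p-values speak only of variation among these libraries, which may be technical. Library totals ran from 53512190 to 68316549 count units, and how many units stand for a sequenced fragment was not tested. Within a group every library lay close to the others, and the first principal component, with 40.8% of the variance, placed the 3 groups apart.

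The marker genes of macrophages were present in every library. Summed over 19 listed markers they reached 2225 to 2313 FPKM in CTR and 1069 to 1097 FPKM in Neu+NETS. The markers that set microglia apart from other macrophages were scarce already in CTR, at 3.67 ± 0.278 FPKM (mean ± SD, n = 4) for Tmem119, 0.658 ± 0.190 for P2ry12 and 0.718 ± 0.191 for Cx3cr1. Neutrophil genes were not abundant in the co-culture: 12 listed markers of mature neutrophils summed to 3.99 to 4.56 FPKM in Neu+NETS, against 17.4 to 18.6 FPKM in CTR and 30.5 to 31.5 FPKM in Neu. S100a8, among the most abundant messages of a neutrophil, was at 0.0547 ± 0.0703 FPKM in Neu+NETS and 0.257 ± 0.249 in CTR, and Mmp8 and Ngp were listed at 0 in all 4 Neu+NETS libraries. Most of the neutrophil sum in CTR came from Csf3r, Trem1 and Slfn4, which macrophages also make. Markers of neutrophil precursors, inflammatory monocytes and lymphocytes each summed to under 1 FPKM in every library of both groups. Retinal markers summed to 26.8 to 28.8 FPKM in CTR and 26.4 to 29.3 FPKM in Neu+NETS. Glul, a housekeeping enzyme in many cells, held 22.7 ± 1.12 FPKM of the sum in Neu+NETS. Of the 3 retinal markers with a mean of at least 1 FPKM in either group, 1 was called higher and 1 lower. The log2 fold changes of these 3 ran from -0.13 to 0.82. The lower one, Glul, lost its call without CTR replicate 2, Neu+NETS replicate 2 or Neu+NETS replicate 3 (edgeR adjusted p = 0.056, 0.054 and 0.060). It also lost its call with library totals only (edgeR adjusted p = 0.15) and with limma on FPKM at both pseudocounts (limma adjusted p = 0.11). Opn1sw, Gfap, Slc1a3 and Nrl were listed at 0 in Neu+NETS.

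A large share of the tested genes differed between the cultures, and the large changes were mostly losses. The test called 7420 genes, or 45.3% of those tested, with 3535 higher (21.6%) and 3885 lower (23.7%) in Neu+NETS. The shares of 21.6% and 23.7% are the background for the list counts given below. The 4 libraries of each group did not overlap in FPKM for 6911 genes (42.2%). Most calls were small. Among the 11369 genes with a mean of at least 1 FPKM in either group, 3262 were higher and 3251 lower, yet a change of at least 2-fold was seen upward in 89 genes and downward in 435, and a change of at least 4-fold upward in 10 and downward in 90. The median log2 fold change over all tested genes was 0.00021. The balance depended on the scaling and the method: limma applied to log2(FPKM + 1) of 11626 genes called 4019 higher and 2852 lower. On the counts, edgeR with RLE scaling called 3865 higher and 3632 lower, and DESeq2 called 3997 higher and 3749 lower.

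**Figure D1:**
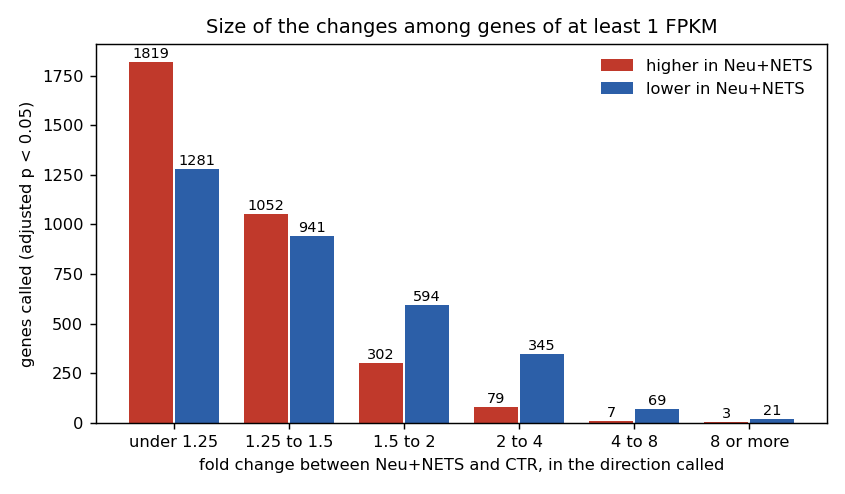
Number of genes called higher or lower in Neu+NETS than in CTR (y axis) by the size of the fold change (x axis), for genes with a mean of at least 1 FPKM in either group. Calls under 1.5-fold were more often upward, and every class from 1.5-fold on held more genes that were lower, with 345 lower and 79 higher between 2-fold and 4-fold.

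The macrophage transcription factors were lower without exception. Of 34 lineage factors looked for, 32 were tested, and all 32 were called lower, against 23.7% of all tested genes, with a median log2 fold change of -0.74 when the 1 factor with no count in Neu+NETS is set to its bound. Spi1, which encodes PU.1, the master factor of the lineage, was at 94.5, 95.6, 97.9 and 98.7 FPKM in CTR and 52.1, 50.3, 49.2 and 49.3 FPKM in Neu+NETS. The groups did not overlap, with a log2 fold change of -0.99 ± 0.0328 SE, edgeR adjusted p = 3.1e-13. Irf8, the partner of PU.1 on microglial enhancers, was at 11.9, 11.2, 11.6 and 11.9 FPKM in CTR and 5.86, 5.75, 5.43 and 5.22 FPKM in Neu+NETS (log2 fold change -1.11 ± 0.0411 SE, edgeR adjusted p = 1.3e-12). Cebpb, a factor of inflammatory macrophages, remained the most abundant of these, at 114, 111, 119 and 118 FPKM in CTR and 77.9, 75.7, 70.0 and 76.7 FPKM in Neu+NETS, and fell least of the 3 (log2 fold change -0.67 ± 0.0485 SE, edgeR adjusted p = 6.1e-09).

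Other members of the list act in narrower programmes. Nr1h3, the liver X receptor alpha that senses oxysterols, fell from 11.8 ± 0.510 to 3.37 ± 0.367 FPKM (log2 fold change -1.85). Tfeb, which drives lysosome genes, fell from 4.12 ± 0.178 to 1.504 ± 0.0178 FPKM (log2 fold change -1.498), and its relative Tfec from 1.16 ± 0.0976 to 0.425 ± 0.165 FPKM (log2 fold change -1.49). Bhlhe41, a factor of tissue macrophages, fell from 8.68 ± 0.318 to 3.46 ± 0.0459 FPKM (log2 fold change -1.37). In a bulk culture, fewer macrophage-like cells and less of these RNAs per cell cannot be told apart. The test against the Neu co-culture found 29 of the 32 lower and 1 higher in Neu+NETS, where 33.1% of all tested genes were lower, 29.4% higher and 62.5% called either way. Bhlhe41 went the other way in Neu, at 19.9, 20.4, 21.0 and 22.03 FPKM, and Irf8 was at 16.2, 15.97, 15.9 and 17.4 FPKM there, above every CTR library.

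**Figure D2:**
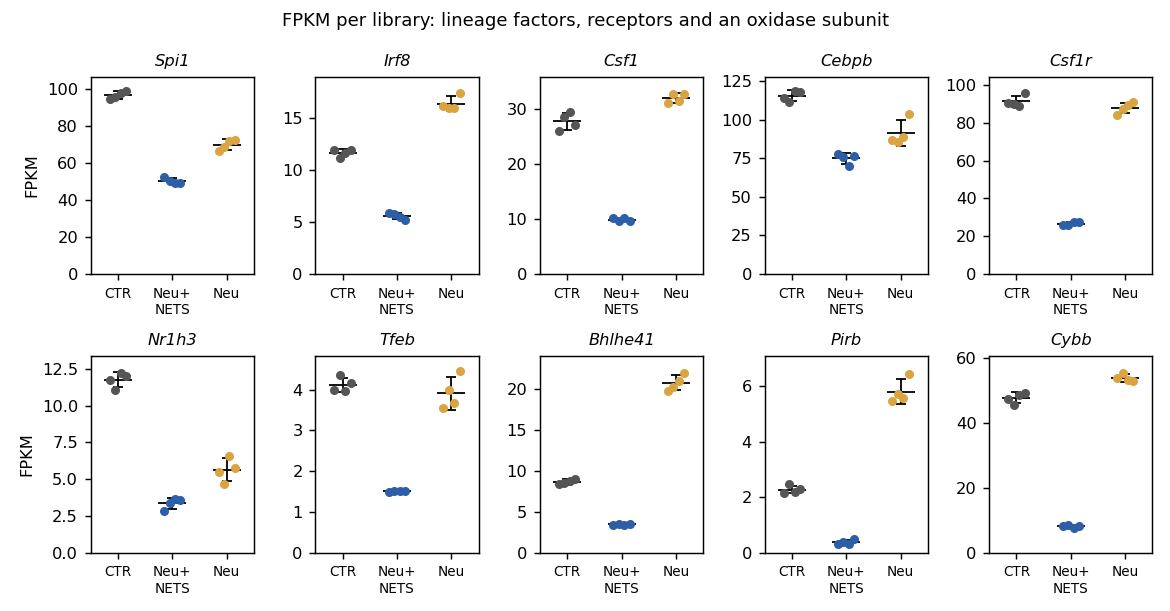
FPKM (y axis, from 0) of 10 genes in each library of CTR (grey), Neu+NETS (blue) and Neu (yellow), with bars at the mean ± SD of 4 libraries. For all 10 genes the Neu+NETS libraries lie below every CTR library, with Cybb at 7.72 to 8.40 against 45.5 to 49.3 FPKM.

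Growth factors and receptors that sustain macrophages were lower too. Of 12 colony-stimulating factors and receptors looked for, 9 were tested and 7 were lower, with none higher. Csf1r, the receptor on which microglia depend for survival, was at 90.6, 89.8, 89.2 and 95.7 FPKM in CTR and 25.8, 25.8, 27.7 and 27.4 FPKM in Neu+NETS, and 84.4, 87.1, 89.4 and 90.8 FPKM in Neu. The Neu+NETS libraries thus stood apart from both other groups. Csf1, one of its ligands and itself made by BV2 cells, was at 26.0, 28.6, 29.6 and 27.1 FPKM in CTR and 10.2, 9.63, 10.2 and 9.63 FPKM in Neu+NETS (log2 fold change -1.54 ± 0.0418 SE, edgeR adjusted p = 2.6e-14). Csf2rb, the shared beta chain for GM-CSF, interleukin 3 and interleukin 5, fell by 1.39 on the log2 scale. Csf2rb2, a beta chain for interleukin 3, fell by 1.42. These 2 genes are near-identical neighbours, so reads may have been split between them. In Neu both chains were above CTR, at 73.3 ± 4.76 FPKM for Csf2rb against 39.9 ± 2.36 in CTR and 15.7 ± 0.647 in Neu+NETS, and at 43.3 ± 2.33 FPKM for Csf2rb2 against 24.8 ± 0.697 and 9.57 ± 0.182. Csf3r, the G-CSF receptor, which neutrophils carry in quantity, was at 4.82, 5.26, 5.32 and 5.21 FPKM in CTR and 0.859, 0.467, 0.748 and 0.689 FPKM in Neu+NETS (log2 fold change -2.94 ± 0.13 SE, edgeR adjusted p = 1.7e-11).

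Receptors by which macrophages read their surroundings were among the most depleted families. All 11 tested C-type lectin receptors were lower, 22 of 23 tested paired, LILR, CD300 and TREM receptors were lower, and all 12 tested Fc gamma receptors and kinases were lower, with median log2 fold changes of -2.18, -1.52 and -0.66. Clec7a (dectin-1, the receptor for fungal beta-glucan) was at 8.38, 7.76, 7.59 and 9.19 FPKM in CTR and 1.348, 1.4997, 1.49 and 1.58 FPKM in Neu+NETS (log2 fold change -2.52 ± 0.0848 SE, edgeR adjusted p = 3.8e-13). Trem1, an amplifier of inflammatory signals, was at 9.15, 8.63, 9.01 and 8.53 FPKM in CTR and 1.94, 2.19, 2.28 and 2.00 FPKM in Neu+NETS (log2 fold change -2.11 ± 0.0645 SE, edgeR adjusted p = 1.1e-13). Pirb, an inhibitory receptor for MHC class I, was at 2.17, 2.46, 2.18 and 2.29 FPKM in CTR and 0.314, 0.404, 0.323 and 0.506 FPKM in Neu+NETS (log2 fold change -2.61 ± 0.12 SE, edgeR adjusted p = 3.0e-11). Neu had more of it than CTR, at 5.48, 5.71, 5.57 and 6.44 FPKM, so the 2 co-cultures lay on opposite sides of CTR, with a log2 difference of -4.01. Hcst, an adaptor of activating receptors, was the 1 member of the paired receptor list that was not called, at 2.83 ± 0.868 FPKM in CTR and 2.55 ± 0.338 in Neu+NETS. Among the Fc receptors, Fcgr1, the high-affinity one for IgG, fell by 1.79, the inhibitory Fcgr2b by 0.74 and Fcgr3 by 0.70 log2 units. The phosphatase Ptpn6 (SHP-1), which opposes their signal, fell by 1.12 on the log2 scale. Against the Neu co-culture, all 11 lectins, 22 of the 23 paired receptors and all 12 Fc genes were lower in Neu+NETS.

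The promoters of the paired receptors were searched for the PU.1 motif GAGGAAGT, on both strands, in windows from 250 bases before to 50 bases after the annotated start (RefSeq, build GRCm38.p6). It occurred in 4 of the 16 promoters found for called members (25%), in 3.28% of all 27025 promoters, in 3.39% of the 10359 of tested genes and in 7.72% of the 622 found for genes at least 2-fold lower. Other depleted lists differed in it. For members called lower, it was in 0 of 25 promoters found for lineage factors and 0 of 9 for C-type lectin receptors. It was in 0 of 14 for MHC class I presentation and 0 of 7 for chemoattractant receptors. Fc gamma receptors and kinases called lower had it in 2 of 10 (20%). Further lower genes with it included Ctss, Tlr1, Tlr9 and Csf2rb2. BCL2 family genes called lower had it in 4 of 9 (44.4%), among them the paralogs Bcl2a1a, Bcl2a1b and Bcl2a1d. The 3 paired receptor promoters with the motif before the start are shown, 5′ to 3′ on the strand of the gene, with the motif in capitals.
Pirb, chr7:3720439-3720558, minus strand: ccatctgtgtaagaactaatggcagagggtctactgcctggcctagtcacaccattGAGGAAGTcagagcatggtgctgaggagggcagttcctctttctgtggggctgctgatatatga
Pira2, chr7:3845136-3845255, minus strand: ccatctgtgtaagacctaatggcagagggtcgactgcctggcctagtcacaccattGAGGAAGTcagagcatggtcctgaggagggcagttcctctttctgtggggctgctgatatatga
Cd300ld, chr11:114989966-114990085, minus strand: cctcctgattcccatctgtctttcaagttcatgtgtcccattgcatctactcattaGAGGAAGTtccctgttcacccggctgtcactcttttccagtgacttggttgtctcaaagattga
The Pirb and Pira2 stretches were 97.5% identical, and reads of these paralogs may have been shared between them. The third, Cd300ld, belongs to the CD300 receptors for lipids on dying cells. A match is a string of letters and not a measured binding site.

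**Figure D3:**
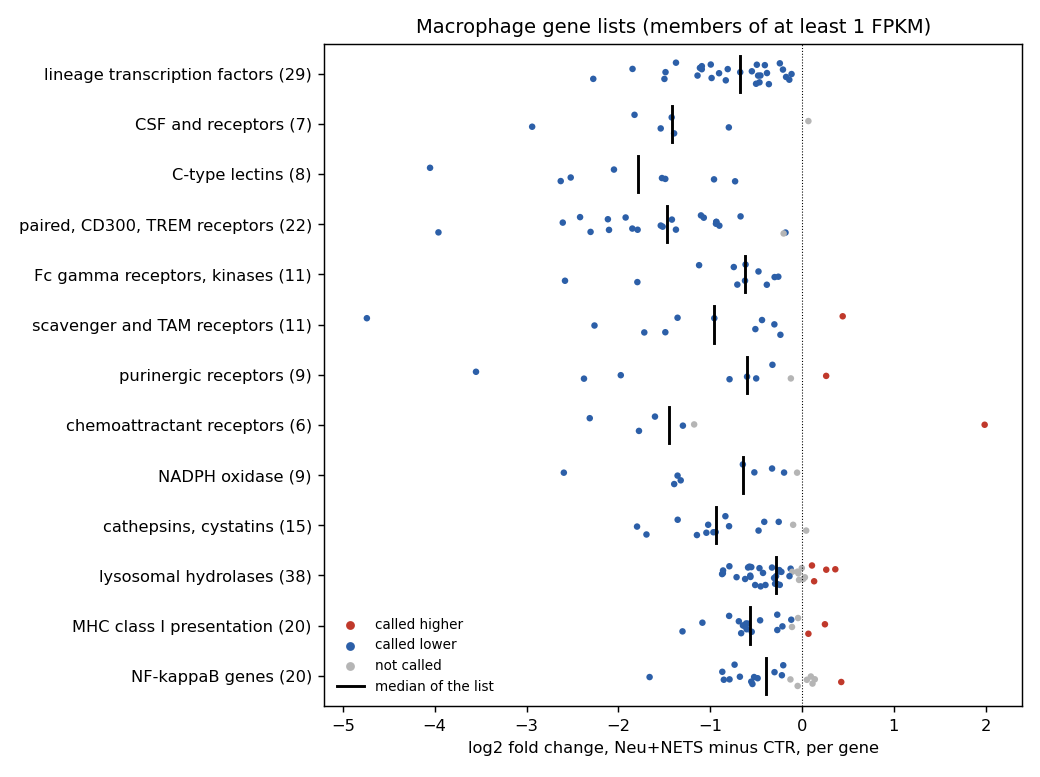
Log2 fold change of each gene (x axis, Neu+NETS minus CTR) in 13 macrophage gene lists (y axis, number of genes in brackets), for tested members with a mean of at least 1 FPKM in either group. Points are blue where called lower, red where called higher and grey where not called, and black bars mark list medians, all of which lie below 0.

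Scavenger, nucleotide and chemoattractant receptors changed in the same direction with a few exceptions. Of 16 tested scavenger, mannose and TAM receptors, 13 were lower and 1 higher. Mertk, the kinase receptor with which macrophages clear apoptotic cells, was at 5.01, 5.01, 5.19 and 5.79 FPKM in CTR and 1.04, 1.03, 1.31 and 1.13 FPKM in Neu+NETS (log2 fold change -2.26 ± 0.0889 SE, edgeR adjusted p = 2.6e-12). Msr1, the class A scavenger receptor, dropped from 1.51 ± 0.169 to 0.0554 ± 0.0424 FPKM. The exception was Scarb1, the receptor for high-density lipoprotein, which rose from 10.7 ± 0.529 to 14.98 ± 0.467 FPKM. Of 12 tested purinergic genes 9 were lower and 1 higher. P2ry6, the UDP receptor of phagocytic microglia, fell from 4.54 ± 0.406 to 0.896 ± 0.0306 FPKM, and P2ry13, an ADP receptor, from 1.77 ± 0.266 to 0.154 ± 0.0621 FPKM. Entpd1 (CD39), the ectoenzyme that breaks down extracellular ATP, fell from 9.75 ± 0.392 to 2.57 ± 0.167 FPKM.

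Of 12 tested receptors for chemokines, formyl peptides and anaphylatoxins, 7 were lower and 1 was higher. The higher one, Cxcr3, which binds interferon-induced chemokines, was at 1.20, 0.755, 1.20 and 0.703 FPKM in CTR and 3.81, 3.42, 4.08 and 4.62 FPKM in Neu+NETS (log2 fold change 1.99 ± 0.21 SE, edgeR adjusted p = 5.9e-07). Cxcr4 fell from 5.71 ± 0.501 to 1.94 ± 0.127 FPKM and C3ar1, the receptor for complement C3a, from 15.6 ± 0.669 to 6.56 ± 0.474 FPKM. In Neu both were above CTR, at 9.49 ± 0.416 and 22.9 ± 1.14 FPKM. Integrins changed in both directions: of 13 tested, 7 were lower, among them Itgal at 2.49 ± 0.571 FPKM in CTR and 0.581 ± 0.132 in Neu+NETS, Itga4 (14.1 ± 0.599 and 5.38 ± 0.196 FPKM) and Itgam (61.6 ± 1.78 and 31.6 ± 2.11 FPKM). The 4 that were higher were Itga6, Itga7, Itgav and Itgb1, which many adherent cells use to hold laminin or other matrix, by 0.47, 0.34, 0.0776 and 0.22 log2 units. Itgav lost its call without CTR replicate 1 or 2 or without Neu+NETS replicate 3 (edgeR adjusted p = 0.054, 0.078 and 0.066).

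The machinery for killing and digesting was lower as well. Of 9 tested NADPH oxidase genes 8 were lower and none higher. Cybb, the catalytic gp91 subunit, was at 47.3, 45.5, 48.7 and 49.3 FPKM in CTR and 8.28, 8.40, 7.72 and 8.28 FPKM in Neu+NETS (log2 fold change -2.59 ± 0.0339 SE, edgeR adjusted p = 3.2e-18). Ncf1 and Ncf4, cytosolic subunits, fell by 1.36 and 1.32, the proton channel Hvcn1 by 1.39, and Cyba, the membrane partner of Cybb, by 0.64 on the log2 scale. Lyz2, the lysozyme of macrophages, was at 785, 793, 797 and 809 FPKM in CTR and 129.97, 139.7, 131 and 143 FPKM in Neu+NETS, a 6.06-fold difference. Of 16 tested cathepsins and cystatins 13 were lower, with a median of -0.89, and of 38 tested lysosomal hydrolases and membrane proteins 27 were lower and 4 higher, with a median of -0.29. Psap, the precursor of the saposins, fell from 893 ± 18.7 to 509 ± 12.1 FPKM, and Ctsh from 3.93 ± 0.404 to 1.252 ± 0.452 FPKM. Proton pump subunits showed no common direction, with 6 higher and 8 lower of 17 tested.

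Antigen presentation and Toll-like receptor genes were mostly lower. Of 21 tested MHC class I and immunoproteasome genes 16 were lower and 2 higher. Psmb10, a catalytic subunit of the immunoproteasome, fell from 49.6 ± 1.02 to 20.8 ± 0.438 FPKM and Psmb9 from 8.71 ± 0.457 to 4.24 ± 0.305 FPKM, while the 2 that rose, Canx and Pdia3, are chaperones of the endoplasmic reticulum (log2 fold changes 0.25 and 0.0693). Of 9 tested MHC class II presentation genes 5 were lower and 2 higher. Of 18 tested Toll-like receptor genes 12 were lower and 3 higher, and of 17 tested co-stimulatory and checkpoint ligands 10 were lower and 3 higher. Vsir (VISTA), a checkpoint ligand, fell from 21.5 ± 1.07 to 8.50 ± 0.410 FPKM, while Pvr, the ligand of the T and NK cell receptors TIGIT and DNAM-1, rose from 6.04, 5.63, 5.43 and 5.74 FPKM in CTR to 14.4, 15.2, 14.2 and 14.2 FPKM in Neu+NETS (log2 fold change 1.29 ± 0.0395 SE, edgeR adjusted p = 1.1e-13). Pvr in Neu was at 15.4, 14.7, 14.5 and 14.6 FPKM.

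Of the lipid genes, the list of liver X receptor targets and lipid export was mostly lower. Those for fatty acid handling and for cholesterol synthesis changed in both directions. Of 16 tested liver X receptor targets and lipid export genes 12 were lower and none higher. Abcg1, a cholesterol exporter, fell from 9.003 ± 0.476 to 3.37 ± 0.251 FPKM. Of 23 tested lipid droplet and fatty acid genes 6 were higher, among them Hilpda, Ppard, Dgat2, Pnpla2 and Acsl3, and 12 were lower. Among the lower ones, Cd36, a fatty acid receptor, fell from 11.7 ± 0.515 to 4.73 ± 0.287 FPKM. Fabp3 and Fabp5, carriers of fatty acids in the cytosol, fell from 82.3 ± 8.38 to 41.1 ± 2.03 FPKM and from 103 ± 5.58 to 57.5 ± 2.46 FPKM. Cholesterol synthesis and uptake was mixed, with 7 higher and 9 lower of 22 tested.

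Secreted mediators changed in both directions. Of 15 tested chemokine ligands 4 were higher and 11 lower, of which 8 had at least 1 FPKM in CTR. Ccl3, an attractant of monocytes and T cells, was the most abundant, at 254, 265, 245 and 243 FPKM in CTR and 935, 986, 999 and 937 FPKM in Neu+NETS (log2 fold change 1.89 ± 0.0364 SE, edgeR adjusted p = 3.9e-16). It was above Neu as well, where it stood at 646, 660.5, 648 and 624 FPKM (log2 difference 0.48 ± 0.0351 SE, edgeR adjusted p = 2.5e-09). Ccl7, a monocyte attractant, moved the other way, from 6.16, 5.79, 6.02 and 5.02 FPKM in CTR to 0.447, 0.551, 0.163 and 0.619 FPKM in Neu+NETS (log2 fold change -3.73 ± 0.30 SE, edgeR adjusted p = 2.3e-08). Ccl9 fell from 3.99 ± 0.312 to 1.53 ± 0.302 FPKM and Cxcl10, an interferon-induced ligand of CXCR3, from 9.10 ± 0.658 to 4.94 ± 0.381 FPKM. Acod1, which makes itaconate in activated macrophages, showed the steepest fall of all genes picked by size, from 130.1, 122, 129 and 129 FPKM in CTR to 7.99, 7.49, 7.48 and 6.69 FPKM in Neu+NETS, or 17.8-fold, while Neu was above CTR at 199, 208, 206 and 224 FPKM.

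Of 18 tested interleukin and other cytokine genes 4 were higher and 7 lower, where 21.6% of all tested genes were higher and 23.7% lower. The median log2 fold change was -0.41 over the 18. It was 0.019 over the 11 with a mean of at least 1 FPKM in either group, of which 3 were higher and 5 lower. Il6 itself was near the limit of detection, at 0.151 ± 0.0645 FPKM in CTR and 0.0150 ± 0.0181 in Neu+NETS, and was called lower (edgeR adjusted p = 0.016). It did not pass the filter with counts divided by 4. Its relatives Osm and Lif rose. Osm (oncostatin M) was at 11.1, 11.1, 11.8 and 11.0 FPKM in CTR and 21.4, 21.5, 20.2 and 19.9 FPKM in Neu+NETS (log2 fold change 0.83 ± 0.0529 SE, edgeR adjusted p = 1.2e-09), and Lif, which was scarce, went from 0.582 ± 0.131 to 1.53 ± 0.341 FPKM. Il10ra, the receptor of interleukin 10, fell from 3.42 ± 0.419 to 1.02 ± 0.181 FPKM, where Neu was at 10.8 ± 0.548 FPKM, and Il15 fell from 3.91 ± 0.325 to 2.25 ± 0.269 FPKM. In the TNF superfamily 8 of 25 tested genes were higher and 11 lower. The neighbouring decoy receptors Tnfrsf26, Tnfrsf23 and Tnfrsf22 rose by 1.10, 0.96 and 0.90 log2 units, and Tnfrsf12a, the receptor of TWEAK, by 0.90. Tnfrsf26 stood at 18.6, 17.5, 17.9 and 17.9 FPKM in CTR and 39.9, 39.95, 39.3 and 40.2 FPKM in Neu+NETS. Tnfrsf1b, the second TNF receptor, fell from 44.9 ± 1.11 to 21.3 ± 1.03 FPKM, and Tnfsf13 (APRIL), a survival factor for B cells, from 10.2 ± 0.997 to 3.53 ± 0.552 FPKM.

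Growth factor and protease genes changed in both directions. Of 18 tested vascular growth factor and receptor genes 2 were higher and 10 lower. Of 15 tested matrix metalloproteinase, ADAM and TIMP genes 3 were higher and 6 lower. Of 12 tested plasminogen activation genes 6 were higher and 5 lower, where 21.6% of all tested genes were higher and 23.7% lower. In Neu, 9 of these 12 were higher than in CTR and none lower. Between the co-cultures 10 of the 12 were lower in Neu+NETS than in Neu and 1 was higher. The genes described next include several of the higher members. Hbegf, a shed ligand of the EGF receptor, was at 1.27, 1.49, 1.33 and 1.18 FPKM in CTR and 5.00, 4.76, 4.48 and 4.36 FPKM in Neu+NETS (log2 fold change 1.76 ± 0.0933 SE, edgeR adjusted p = 1.2e-10). The Neu libraries, at 1.51, 1.64, 1.71 and 1.84 FPKM, lay nearer to CTR, and the log2 difference between the co-cultures was 1.36 ± 0.0915 SE, edgeR adjusted p = 7.1e-10. Vegfa showed the reverse order, with 9.53, 9.01, 9.79 and 9.96 FPKM in CTR, 14.5, 12.7, 13.4 and 12.7 in Neu+NETS and 36.9, 34.7, 37.2 and 37.6 in Neu. It rose in Neu+NETS by 0.43 log2 units with a log2 difference from Neu of -1.56. Plau, the urokinase that activates plasminogen, was at 130.3, 131, 132 and 123 FPKM in CTR and 252, 264, 255 and 257 FPKM in Neu+NETS (log2 fold change 0.95 ± 0.0259 SE, edgeR adjusted p = 2.9e-14), and its receptor Plaur rose by 0.74. Of the coagulation genes F7 and Thbd (thrombomodulin) fell by 1.83 and 1.88 log2 units. Pla2g5, a secreted phospholipase A2, was at 10.2, 9.26, 9.15 and 9.79 FPKM in CTR and 34.7, 34.8, 34.5 and 31.0 FPKM in Neu+NETS (log2 fold change 1.76 ± 0.0494 SE, edgeR adjusted p = 3.9e-14), and at 13.4, 13.7, 13.8 and 14.7 FPKM in Neu.

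**Figure D4:**
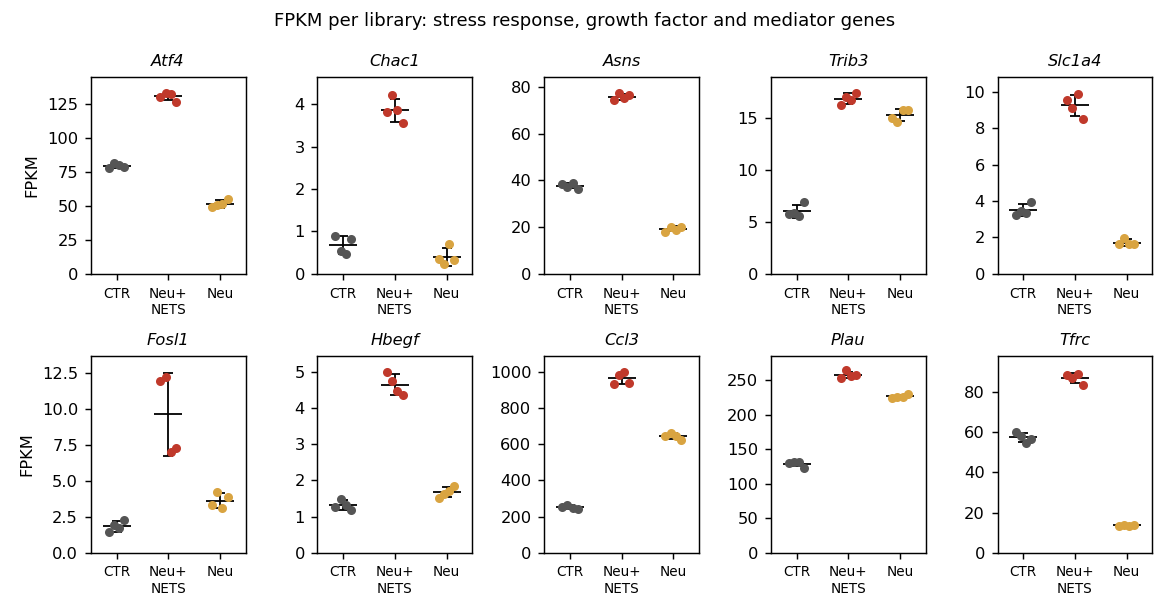
FPKM (y axis, from 0) of 10 genes that were higher in Neu+NETS (red) than in CTR (grey), with the Neu libraries in yellow and bars at the mean ± SD of 4 libraries. No Neu+NETS library overlaps CTR, and for Atf4, Asns, Slc1a4 and Tfrc the Neu libraries lie below CTR.

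Genes of the protein kinase C and ERK pathways gave a split picture. Of 20 tested phorbol ester receptors (kinases C and D, RasGRP) and diacylglycerol kinases 3 were higher and 8 lower, against 21.6% and 23.7% of all tested genes. Of the kinase C isoforms, Prkcd fell from 19.9 ± 0.565 to 14.4 ± 0.737 FPKM and Prkch from 15.4 ± 0.723 to 12.3 ± 0.469 FPKM. Prkce rose from 1.77 ± 0.197 to 2.28 ± 0.334 FPKM (log2 fold change 0.31 ± 0.10 SE, edgeR adjusted p = 0.021), and lost its call without CTR replicate 2 (edgeR adjusted p = 0.071) or Neu+NETS replicate 4 (edgeR adjusted p = 0.083). Prkca was at 1.58 ± 0.0730 and 1.82 ± 0.120 FPKM and was not called (edgeR adjusted p = 0.12), and Prkcb was at or near 0 in every library of both groups. Phosphatases and other inhibitors that ERK signalling induces were mostly higher, with 10 of 17 tested higher and 1 lower (median log2 fold change 0.30). In Neu, 13 of the 17 were higher than in CTR and 2 lower (median 0.47). Between the co-cultures 5 were higher in Neu+NETS than in Neu and 8 were lower. Dusp5, a nuclear ERK phosphatase, was at 6.13, 7.74, 6.63 and 6.54 FPKM in CTR and 15.5, 15.98, 16.7 and 14.02 FPKM in Neu+NETS (log2 fold change 1.15 ± 0.0795 SE, edgeR adjusted p = 3.6e-09). Dusp14, Dusp2 and Dusp6 rose by 1.33, 0.74 and 0.31 log2 units. Fosl1, the AP-1 subunit that accumulates under sustained ERK activity, was at 1.41, 1.92, 1.74 and 2.31 FPKM in CTR and 12.0, 12.2, 7.04 and 7.26 FPKM in Neu+NETS (log2 fold change 2.33 ± 0.20 SE, edgeR adjusted p = 4.1e-08). Its Neu+NETS libraries fell into 2 high and 2 lower values, all above the 3.11 to 4.21 FPKM of Neu. Maff, a small MAF protein, rose by 1.34, with Neu at 15.9 ± 0.486 FPKM above the 13.2 ± 1.39 FPKM of Neu+NETS.

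Of 13 tested AP-1 genes 3 were higher and 5 lower, where 21.6% of all tested genes were higher and 23.7% lower. Fos was at 5.42, 5.16, 6.46 and 6.22 FPKM in CTR and 2.59, 2.79, 2.64 and 3.60 FPKM in Neu+NETS (log2 fold change -1.050 ± 0.12 SE, edgeR adjusted p = 2.0e-06), Atf3 fell by 1.15 and Jun by 0.41 log2 units, and in Neu the last 2 were above CTR at 51.1 ± 1.22 and 39.6 ± 2.88 FPKM. Of 22 tested EGR, IER, KLF and NR4A genes 5 were higher, a share close to that of all tested genes, and 12 were lower. Egr1 was listed at 0 in all 8 libraries and was not tested. Ier2 rose from 27.8 ± 1.46 to 50.5 ± 2.96 FPKM and Ier3 from 30.6 ± 1.76 to 55.8 ± 2.32 FPKM, whereas Klf2, a factor that quiets inflammatory genes, fell from 4.85 ± 0.727 to 2.73 ± 0.162 FPKM. NF-kappaB genes were mostly lower, with 14 of 22 tested lower and 1 higher. Bcl3 fell from 6.41 ± 0.679 to 2.09 ± 0.578 FPKM, Tnip1 from 38.7 ± 0.224 to 21.9 ± 1.19 FPKM and Nfkb1 from 11.0 ± 0.317 to 7.77 ± 0.140 FPKM, and the 1 that rose was the kinase Chuk (log2 fold change 0.43). Gdf15, a stress-induced member of the TGF-beta family, rose from 3.52 ± 0.155 to 6.63 ± 0.537 FPKM.

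The integrated stress response was the list with the largest median gain. Of 22 genes looked for 18 were tested, and 13 were higher and none lower, with a median log2 fold change of 0.59. Atf4 itself was at 78.0, 81.8, 80.1 and 78.9 FPKM in CTR and 130.5, 133, 133 and 127 FPKM in Neu+NETS (log2 fold change 0.67 ± 0.0336 SE, edgeR adjusted p = 6.2e-11). Its target Asns, asparagine synthetase, was at 38.6, 37.2, 38.8 and 36.5 FPKM in CTR and 74.3, 77.2, 75.2 and 76.4 FPKM in Neu+NETS. Both genes were lower in Neu than in CTR, at 49.1, 50.4, 51.1 and 55.5 FPKM for Atf4 and 17.9, 20.1, 18.8 and 20.2 FPKM for Asns, and the co-cultures differed by log2 values of 1.24 and 1.87. Chac1, which degrades glutathione, rose from 0.903, 0.547, 0.459 and 0.817 FPKM in CTR to 3.81, 4.21, 3.86 and 3.55 FPKM in Neu+NETS (log2 fold change 2.45 ± 0.29 SE, edgeR adjusted p = 2.1e-06) and was at 0.352, 0.227, 0.715 and 0.317 FPKM in Neu. Ddit3 (CHOP), a death-promoting factor of the pathway, rose by 0.74, and Eif4ebp1, a brake on cap-dependent translation, by 1.17 log2 units. Between the co-cultures 9 of the 18 genes were higher in Neu+NETS than in Neu, 4 were lower and 5 were not called. Trib3 was one of those not called. Trib3, a pseudokinase that feeds back on ATF4, was at 5.75, 5.82, 5.56 and 6.95 FPKM in CTR, 16.3, 17.1, 16.8 and 17.4 in Neu+NETS and 15.03, 14.7, 15.8 and 15.7 in Neu, and its difference between the co-cultures was 0.0363 ± 0.0629 SE, edgeR adjusted p = 0.64. The 5 members not called were Cebpg (7.63 ± 0.626 FPKM in CTR and 7.90 ± 0.397 in Neu+NETS), Ddit4 (9.69 ± 0.329 and 9.68 ± 0.649) and 3 of the kinases that start the response, Eif2ak2 (20.5 ± 0.668 and 21.1 ± 0.781), Eif2ak3 (3.89 ± 0.105 and 3.97 ± 0.177) and Eif2ak4 (10.2 ± 0.453 and 10.6 ± 0.432).

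The motif TGATGNAA, the amino acid response element that ATF4 and C/EBP factors bind, was searched in the same way. It lay in 4 of the 12 promoters found for called members of this list (33.3%), in 4.06% of all promoters, in 2.36% of those of tested genes and in 7.30% of the 137 found for genes at least 2-fold higher. It also lay in 3 of the 9 promoters of BCL2 family genes called lower (33.3%), which are the paralogs Bcl2a1a, Bcl2a1b and Bcl2a1d. For amino acid transporters called lower it lay in 2 of the 7 promoters (28.6%). It lay in 1 of the 8 promoters of amino acid transporters called higher (12.5%) and in 1 of the 13 of endoplasmic reticulum chaperone genes called higher (7.69%), which is Herpud1. The stretches that hold it before the start are shown for the list and for Herpud1 of the endoplasmic reticulum, with the motif in capitals. It reads TTGCATCA where it lies on the opposite strand.
Asns, chr6:7693210-7693329, minus strand: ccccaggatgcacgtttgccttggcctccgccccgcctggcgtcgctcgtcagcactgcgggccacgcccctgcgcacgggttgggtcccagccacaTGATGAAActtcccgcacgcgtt
Chac1, chr2:119350993-119351112, plus strand: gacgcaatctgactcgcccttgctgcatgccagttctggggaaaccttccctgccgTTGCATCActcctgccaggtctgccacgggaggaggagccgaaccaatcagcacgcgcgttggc
Nupr1, chr7:126625517-126625636, minus strand: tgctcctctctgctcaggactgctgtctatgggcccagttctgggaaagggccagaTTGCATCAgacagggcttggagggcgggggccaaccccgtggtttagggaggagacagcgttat
Herpud1, chr8:94386261-94386380, plus strand: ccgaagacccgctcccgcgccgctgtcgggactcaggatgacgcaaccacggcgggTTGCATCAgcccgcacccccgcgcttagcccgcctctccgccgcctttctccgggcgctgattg
In Trib3 the match lay after the start and is not shown. Asns holds it closest to the start, with 15 bases between. Of these, Chac1 had the largest change and Nupr1, a small stress-induced nuclear protein, the smallest, from 1.79 ± 0.184 to 2.84 ± 0.397 FPKM.

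Genes that import amino acids changed in both directions, and those that charge them onto tRNA were mostly higher. Of 25 tested amino acid transporters 12 were higher and 10 lower. Slc1a4, which carries serine, alanine and cysteine, was at 3.22, 3.46, 3.33 and 3.97 FPKM in CTR, 9.54, 9.11, 9.88 and 8.53 in Neu+NETS and 1.63, 1.98, 1.65 and 1.62 in Neu, so the co-cultures lay on opposite sides of CTR (log2 difference 2.32 ± 0.0893 SE, edgeR adjusted p = 4.9e-13). Slc6a9, a glycine carrier, rose from 2.62 ± 0.223 to 6.47 ± 0.188 FPKM, Slc7a5, the leucine carrier, from 51.5 ± 2.03 to 95.2 ± 4.15 FPKM and Slc1a5, the glutamine carrier, from 55.4 ± 2.13 to 80.7 ± 1.496 FPKM. In Neu these 3 were below CTR, at 1.28 ± 0.0697, 24.4 ± 1.47 and 32.7 ± 1.94 FPKM. Slc43a2 and Slc7a8, carriers of neutral amino acids, fell by 1.354 and 1.26 log2 units, and the cystine carrier Slc7a11 fell by 0.31. Of 20 tested cytosolic aminoacyl-tRNA synthetases 15 were higher and 1 lower (Vars1), with Cars1 rising from 7.17 ± 0.278 to 13.5 ± 0.355 FPKM and Aars1 from 25.6 ± 0.527 to 43.0 ± 1.5999 FPKM. Their 17 mitochondrial counterparts were mostly lower, with 2 higher and 9 lower.

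Serine and one-carbon enzymes and the protein-folding machinery were more often higher than lower. Of 23 tested serine and one-carbon genes 13 were higher and 1 lower. Aldh1l2, a mitochondrial folate enzyme, was at 1.5001, 1.59, 1.56 and 1.52 FPKM in CTR, 5.83, 5.58, 5.54 and 5.18 in Neu+NETS and 9.48, 10.6, 9.68 and 10.6 in Neu. Mthfd2, its neighbour in the pathway, was at 22.4, 20.9, 21.0 and 20.6 FPKM in CTR, 39.7, 38.8, 38.1 and 39.3 in Neu+NETS and 7.60, 7.51, 7.58 and 7.82 in Neu, so these 2 enzymes differed in the direction of the Neu co-culture. Psph, the last step of serine synthesis, rose from 4.04 ± 0.109 to 8.92 ± 0.544 FPKM, while Phgdh, the first step, fell slightly, from 324 ± 4.48 to 294 ± 7.04 FPKM. Of 27 tested chaperones and unfolded protein response genes 17 were higher and 3 lower. Herpud1, which helps degrade misfolded protein, was at 13.2, 13.5, 10.9 and 13.1 FPKM in CTR and 30.2, 29.3, 28.6 and 29.2 FPKM in Neu+NETS (log2 fold change 1.16 ± 0.0599 SE, edgeR adjusted p = 8.8e-11), and Hspa5 (BiP), the main chaperone, rose by 0.45. Of 23 heat shock genes tested 14 were higher and 3 lower, none of those higher by more than 0.53 log2 units.

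**Figure D5:**
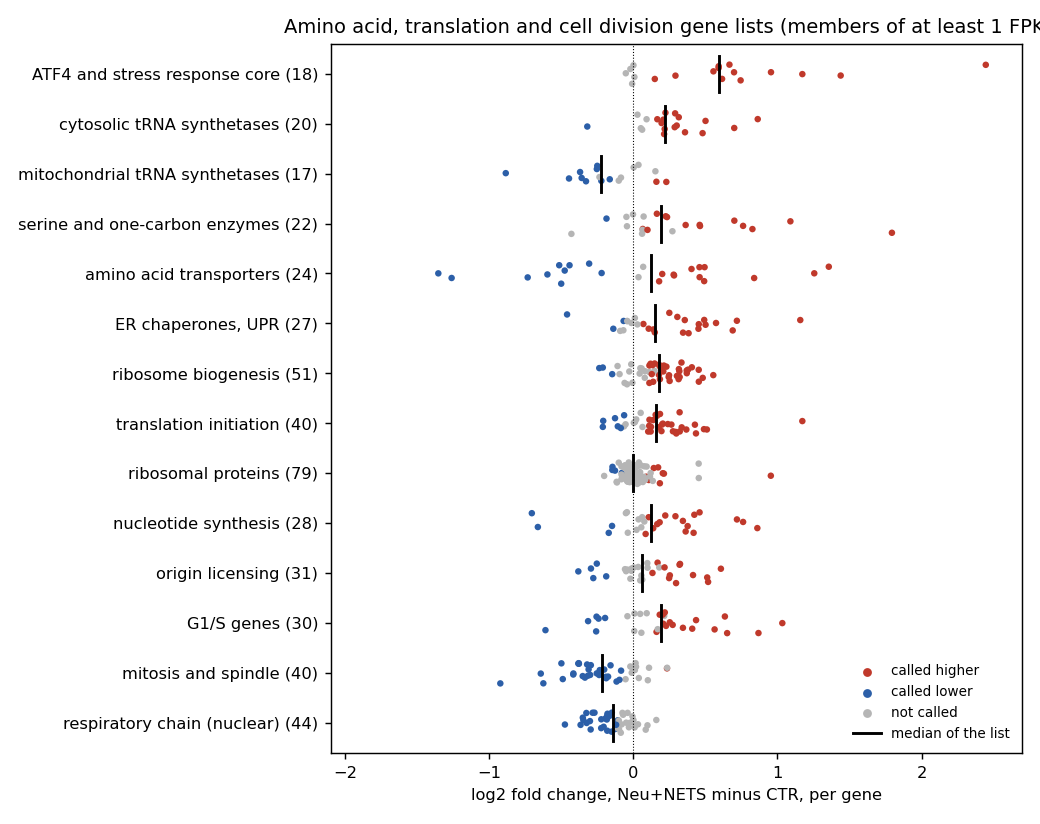
Log2 fold change of each gene (x axis, Neu+NETS minus CTR) in 14 lists of amino acid, translation and cell division genes (y axis, number of genes in brackets), for tested members with a mean of at least 1 FPKM in either group. Points are red where called higher, blue where called lower and grey where not called, and the black bars mark list medians, from 0.59 for the stress response down to -0.22 for mitochondrial tRNA synthetases and for mitosis.

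Growth genes shifted by small amounts, in opposite directions for growth and for division. Of 51 tested ribosome biogenesis genes 34 were higher and 3 lower, with a median of 0.18. Against Neu, 50 of the 51 were higher in Neu+NETS. Polr1b, the second subunit of RNA polymerase I, was at 27.2, 25.2, 26.9 and 27.5 FPKM in CTR, 32.0, 31.5, 30.6 and 30.7 in Neu+NETS and 14.5, 14.5, 14.7 and 15.6 in Neu. Polr1e, another subunit, rose from 5.00 ± 0.274 to 7.60 ± 0.678 FPKM and Ncl (nucleolin) from 220.3 ± 3.93 to 296 ± 3.93 FPKM. Translation initiation factors showed 27 higher and 6 lower of 40 tested. The ribosomal proteins themselves hardly took part: of 79 tested 8 were higher and 4 lower, or 15.2% called against 45.3% of all genes. Their split turned with 1 library: without CTR replicate 4, 4 were higher and 9 lower.

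Genes of the G1/S transition were more often higher, with 16 higher and 8 lower of 32 tested. Over all tested genes 21.6% were higher and 23.7% lower. Ccne1 and Ccne2, the E cyclins that open S phase, rose from 31.1 ± 0.647 to 50.4 ± 0.680 FPKM and from 9.33 ± 0.656 to 17.6 ± 1.59 FPKM, and Ccnd1 rose by 0.23. Myc was scarce, at 0.318 ± 0.0432 FPKM in CTR and 0.110 ± 0.0492 in Neu+NETS, and fell. Cdc6, which loads the replicative helicase, rose from 14.3 ± 0.279 to 21.1 ± 0.674 FPKM and Rrm2, the ribonucleotide reductase subunit that limits DNA synthesis, from 43.4, 44.6, 41.2 and 40.97 FPKM in CTR to 73.6, 72.5, 73.0 and 70.8 FPKM in Neu+NETS (log2 fold change 0.72 ± 0.0346 SE, edgeR adjusted p = 3.5e-11). Mcm2, a subunit of that helicase, was at 39.6 ± 0.774 and 40.6 ± 1.65 FPKM and was not called (edgeR adjusted p = 0.74). The inhibitors Cdkn1a and Cdkn2b were also higher, by 0.63 and 1.03 log2 units. Mitosis and spindle genes went down: 28 of 40 tested were lower and 1 higher (Mad2l1), with a median of -0.22. In Neu, 34 of the 40 were lower than in CTR and 2 higher (median -0.39). Between the co-cultures 28 were higher in Neu+NETS than in Neu and 9 were lower. Mki67, the proliferation marker Ki-67, was at 62.3, 59.1, 61.9 and 62.6 FPKM in CTR and 45.8, 48.4, 46.5 and 49.7 FPKM in Neu+NETS (log2 fold change -0.42 ± 0.0291 SE, edgeR adjusted p = 4.1e-09), above the 40.5, 40.1, 37.7 and 38.8 FPKM of Neu. Cdc25b, a phosphatase that starts mitosis, fell from 57.7 ± 1.93 to 31.4 ± 1.45 FPKM and Ccnb2, a mitotic cyclin, from 59.9 ± 2.24 to 39.7 ± 1.21 FPKM. Trp53 fell by 0.19 and its target Mdm2 rose by 0.38 log2 units.

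Among 19 tested iron genes 4 were higher and 9 lower, where 21.6% of all tested genes were higher and 23.7% lower. Tfrc, the transferrin receptor that brings iron in, was at 60.1, 58.2, 54.7 and 56.5 FPKM in CTR, 88.6, 86.9, 88.7 and 83.6 in Neu+NETS and 13.5, 13.8, 13.2 and 13.9 in Neu, 2.57 log2 units apart between the co-cultures. Slc40a1, the only known iron exporter, fell from 9.63 ± 0.668 to 4.69 ± 0.314 FPKM, and Fth1, the ferritin heavy chain that stores iron, from 1986, 2007, 2004 and 1999.6 FPKM in CTR to 1183, 1229, 1199.7 and 1189 FPKM in Neu+NETS. Hmox1, which frees iron from haem, was at 116 ± 5.42 and 122 ± 3.10 FPKM and was not called (edgeR adjusted p = 0.6), while Neu was at 372 ± 9.50 FPKM. Of 24 tested HIF and oxygen-sensing genes 17 were higher and 5 lower, with a median log2 fold change of 0.24. In Neu, 17 of the 24 were higher than in CTR and 3 lower, with a median of 1.31. Between the co-cultures 20 were lower in Neu+NETS than in Neu and 3 were higher. From CTR to Neu+NETS, Hif1a rose by 0.24 log2 units and its target Egln3 from 4.46 ± 0.359 to 9.36 ± 0.565 FPKM. Slc2a1, the glucose transporter GLUT1, was at 56.2, 58.0, 55.4 and 56.5 FPKM in CTR, 102, 105, 99.2 and 106 in Neu+NETS and 250.3, 251, 251 and 274 in Neu. It rose by 0.82 log2 units with a log2 difference from Neu of -1.42. Glycolytic genes had no common direction, with 8 higher and 12 lower of 29 tested. NRF2 targets were mixed too, with 9 higher and 16 lower of 30 tested, Srxn1 rising from 35.3 ± 0.920 to 59.0 ± 0.662 FPKM and Mgst1 falling from 13.8 ± 0.478 to 7.26 ± 1.09 FPKM. Nos2, the inducible nitric oxide synthase, was at 0 to 0.0416 FPKM in Neu+NETS and 0.111 to 0.243 FPKM in CTR, both near 0, against 90.9 to 105 FPKM in Neu. Odc1, the first enzyme of polyamine synthesis, was at 140.4, 134, 137 and 132 FPKM in CTR, 245, 243, 242 and 247 in Neu+NETS and 130.3, 132, 129.8 and 129.9 in Neu. Of 44 tested nuclear-encoded respiratory chain subunits 25 were lower and none higher, the largest fall being 0.48 log2 units for Ndufs8.

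The remaining motifs were searched in the same way. In promoters of the 622 genes at least 2-fold lower, the AP-1 motif TGANTCA occurred in 10.8% and the interferon-type repeat GAAANNGAA in 12.9%, against 7.93% and 8.57% of all promoters. Among tested genes alone the shares were 5.32% and 7.40%. The CLEAR motif TCACGTG, bound by TFEB and TFE3, lay in 6 of the 20 promoters found for lysosomal genes called lower (30.0%), against 3.84% of all promoters and 6.06% of those of tested genes. Among the 622 genes at least 2-fold lower its share was 3.86%. The cyclic AMP response element TGACGTCA lay in 0.643% of the promoters of genes at least 2-fold lower and in 3.20% of those of tested genes. The NF-kappaB motif GGGANNNCC lay in 11 of the 25 promoters found for lineage factors called lower (44%), against 23.4% of those of tested genes. These shares describe letters in windows of 300 bases, and 63.2% of tested genes had a window.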

How the data were processed

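RNA-seq of polyadenylated RNA from BV2 cultures gave 12 libraries, 4 in each group named in the labels. The authors deposited, per the file headers, whole-number estimated counts and FPKM per gene. Per the submitters' processing notes, HISAT2 2.0.4, StringTie 1.3.4d and edgeR were named, with the genome build GRCm39. No column was left without a sample. The deposited counts are not plain read counts: 33.0% of values between 2 and 41 were multiples of 4, where an even spread would give 25%, so a fragment may stand for about 4 units, which was not tested.

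All 12 libraries entered 1 fit of edgeR 4.0.16 (R 4.3.3) with filterByExpr, TMM scaling and quasi-likelihood tests, with p-values adjusted over all 16387 genes by the Benjamini-Hochberg method at 0.05. SE was taken as the size of the log2 fold change over the root of its F statistic. A group at 0 was bounded at 3 fragments, or 12 units if a fragment is worth 4. The pipeline was tested on simulated data first. Correlations of deviations between same-numbered CTR and Neu+NETS libraries ran from -0.038 to -0.0017, and between differently numbered ones from -0.013 to 0.028. Values this small cannot show whether libraries were paired, since pairing with little shared effect would give the same. The main fit used no pairing by replicate number. Chi-square per degree of freedom between replicates of a group, on counts divided by 4, ran from 2.86 to 3.95. There 1 is sampling noise if a fragment is worth 4 units. The worth of a fragment was not tested, so whether replicates differed beyond sampling noise was not settled. Libraries were counted as separate as the labels give them.

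Genes were named by a rule: the 15 largest called changes in each direction with at least 5 FPKM, up to 5 called members of each list in each direction with at least 1 FPKM, and 33 fixed genes, 32 of them tested; some genes that the rule names are not reported here. Members and lists were chosen with earlier results of these data known. Cd300ld, Pira2, Nupr1, Hspa5, Ncl, Nfkb1, Slc7a11, Il6, Bcl2a1a and uncalled list members fall outside the rule and were chosen after their values were seen. Alternatives were the replicate block, RLE, upper quartile or no scaling factors, no filter or a stricter one (5 CPM in 4 libraries), DESeq2 1.42.0, limma 3.58.1 on log2 FPKM with pseudocounts of 1 and 0.1, the 8 compared libraries alone, counts divided by 4, and each library left out in turn.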

Additional observations from a re-analysis of the deposited data

Results flagged for a closer look

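For the genes with values above, each group of 4 libraries was searched for a library far from the other 3, meaning that its gap to the nearest of them exceeded Dixon's critical share of the whole range. This was so in 19 of 328 groups of values, and chance alone puts about 1 in 20 groups past that limit. In CTR, outlying high values were 68.9 FPKM of Ncf1 in library 4 (next 67.1), 8.68 FPKM of Tnfrsf12a in library 2 (next 6.70), 26.5 FPKM of Atf3 in library 4 (next 24.4) and 10.3 FPKM of Entpd1 in library 4 (next 9.62). Further such values there were 8.56 FPKM of Cebpg in library 2 (next 7.38) and 11.8 FPKM of Osm in library 3 (next 11.1). In CTR, outlying low values were 28.0 FPKM of Ier3 in library 2 (next 31.2), 123 FPKM of Plau in library 4 (next 130.3) and 122 FPKM of Acod1 in library 2 (next 129). In Neu+NETS, outlying high values were 59.2 FPKM of Ier3 in library 2 (next 55.0), 302 FPKM of Ncl in library 4 (next 295), 0.00447 FPKM of Prkcb in library 1 (next 0) and 16.7 FPKM of Csf2rb in library 4 (next 15.5). Further such values there were 5.00 FPKM of Cdkn2b in library 3 (next 4.63). In Neu+NETS, outlying low values were 10.002 FPKM of Eif2ak4 in library 3 (next 10.8), 10.8 FPKM of Atf3 in library 3 (next 11.7), 31.0 FPKM of Pla2g5 in library 4 (next 34.5) and 11.1 FPKM of Maff in library 4 (next 13.7). Further such values there were 9.30 FPKM of Csf2rb2 in library 1 (next 9.65). These values came from 7 of the 8 libraries, none with more than 4 of them. The groups still did not overlap for any of these genes other than Cebpg, Eif2ak4 and Prkcb, none of which was called.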

How the results depend on the processing

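The counts of genes higher and lower in Neu+NETS than in CTR stayed within 1.5 times of 3535 and 3885 in all 19 alternatives, and between 6757 and 6850 of the 7420 called genes kept their call when 1 library was left out. With the replicate block, 3491 genes were higher and 3819 lower. The number lower than in Neu, 5422, was 3581 with limma on log2 FPKM at a pseudocount of 1 and 3568 at 0.1, where 11626 genes were tested and not 16387. Higher calls made up 47.6% of all calls, 51.6% both with RLE scaling and with DESeq2, and 58.5% and 58.3% with limma. They made up 56.7% with scaling by library totals only, which moved the median of all genes to 0.056.

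For 164 genes with values in the text, 3093 comparisons with alternatives kept direction and call in 3053, and every change of sign was in a gene that was not called. Mcm2 was at 0.0101 under RLE scaling, 0.0426 with library totals, 0.0100 with DESeq2, 0.0343 and 0.0350 with limma and, with 1 library left out, between -0.0327 and 0.00731 (without Neu+NETS replicate 1). Eif2ak2 was at 0.0147, 0.0473, 0.0146, 0.0385 and 0.0401 under the same settings, 0.0155 without Neu+NETS replicate 1, and between -0.0262 and 0.0183 (without CTR replicate 2) over all libraries left out. Eif2ak3 was at 0.00240, 0.0351, 0.00247, 0.0217 and 0.0264 under those settings and, leaving out libraries, between -0.0417 and 0.0128 (without Neu+NETS replicate 2), and Ddit4 was at 0.00333 with library totals. Cebpg was at -0.00415 with the stricter filter and, leaving out libraries, between -0.0227 (without CTR replicate 3) and 0.0650 (without CTR replicate 2), with -0.0144 without Neu+NETS replicate 1 and -0.0155, -0.0207 and -0.0173 without CTR replicate 1, CTR replicate 4 and Neu+NETS replicate 4. Eif2ak4 ranged from -0.0122 (without CTR replicate 2) to 0.0363, with -0.00464 without Neu+NETS replicate 1. Prkca was called with library totals only (log2 fold change 0.21, edgeR adjusted p = 0.039). The cause was not tested.

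Of the lists, chemokine ligands had 6 lower with the stricter filter and with limma, C-type lectins had 6 of 6 tested lower with the stricter filter, and ribosomal proteins had 15 higher with library totals only. Genes near 0, such as Nos2 and Prkcb, are limited by depth, and levels alone are given for them.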
